A study of Saccharomyces cerevisiae with 15 samples.

Results

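Ribosome assembly genes encode the nucleolar proteins that make, modify and fold ribosomal RNA and bring it together with ribosomal proteins. A list of 60 names from this pathway was followed in the budding yeast Saccharomyces cerevisiae, with ribosomal proteins themselves left out. The names stand for 59 genes, since SIK1 is an older name of NOP56, and 58 of them had a probe set on the array, out of 5656 genes measured. NOP10, a small protein of the box H/ACA particles, had none. By their textbook roles the 58 were 22 factors of the small subunit, 25 of the large subunit, 6 proteins of small nucleolar RNA particles (snoRNPs) and 5 that serve both subunits or act more generally. A gene with several probe sets was read from the brightest, which concerned NOP58 and DBP2.

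Transcript levels were measured on Affymetrix YG-S98 arrays in 15 cultures, 3 biological replicates in each of 5 groups, all growing logarithmically at 30 °C in synthetic dextrose medium. The groups were a PDR1 deletion strain carrying a fusion of Pdr1 to Cyc8, cells with that fusion and no labelled deletion, cells with a fusion of Pdr1 to Sin3, the PDR1 deletion without a fusion, and cells with an empty vector. Pdr1 is a transcription factor that activates drug resistance genes, while Cyc8 and Sin3 each belong to a corepressor complex. The labels name neither the parent strain, the promoters of the fusions, nor a vector in the deletion without a fusion.

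Yeast ribosomes are built from precursors that RNA polymerase I transcribes in the nucleolus. The precursor binds UtpA, UtpB and the U3 snoRNP while it is still being made, small and large subunit precursors then separate, and helicases, methyltransferases and GTPases remodel each of them on the way to the cytoplasm. In yeast these genes are known to be transcribed as a regulon that follows growth and falls in stress, with repressors such as Tod6 and Dot6 and activators such as Sfp1.

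Levels are given as log2 of the quantile-normalised signal plus 16, on which 1 unit is close to a doubling for bright genes and less for dim ones. The signal is relative to each array, so the amount of RNA per cell was not measured. Levels of different genes come from different probes and are not compared with each other. The assembly genes had mean levels of 6.16 to 12.79 with a median of 8.62, against a median of 7.79 over all genes. A gene was called at a Benjamini-Hochberg adjusted p under 0.05 in a limma fit to all 9275 probe sets that were not controls.

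Before the assembly genes, the arrays themselves need a description. On the 9 arrays of the Pdr1-Cyc8, PDR1 deletion and empty vector groups the BioC spike-in exceeded BioB by 1.02 to 1.32 on the log2 scale, and on the 6 arrays of the Pdr1-Cyc8 in deletion and Pdr1-Sin3 groups the difference was -0.64 to -0.20. No group had arrays of both kinds, so group and array set cannot be told apart in comparisons across the sets, while Pdr1-Cyc8 or the deletion against the empty vector, and Pdr1-Cyc8 in the deletion against Pdr1-Sin3, lay within a set. The target genes followed the labels: PDR1 had an intermediate level of 6.94 ± 0.24 with Pdr1-Cyc8 in the deletion, 4.70 ± 0.40 in the deletion alone and 9.08 ± 0.16 with the empty vector (SD, n = 3). CYC8 was 2.89 higher with Pdr1-Cyc8 in the deletion and 3.58 higher with Pdr1-Cyc8 than with the empty vector, and SIN3 was 3.24 higher with Pdr1-Sin3. A probe set that the annotation pairs with no gene, chosen after its values were seen, lay at 4.48 ± 0.27 with Pdr1-Cyc8 in the deletion and at 13.97 ± 0.16 in the deletion alone. In the other groups it lay at 4.35 ± 0.06 with Pdr1-Cyc8, 4.22 ± 0.07 with Pdr1-Sin3 and 4.23 ± 0.05 with the empty vector. Whether the deletion strain differs from the others in more than PDR1 was not tested, which touches every comparison with it, that against the empty vector included.

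The level of the assembly genes differed between cultures of the Pdr1-Cyc8 and deletion groups, and less within the other groups. Relative to the empty vector mean of each gene, the average over the 58 genes was -0.10, -0.01 and -0.07 in the 3 cultures with Pdr1-Cyc8 in the deletion. It was -1.28, -0.50 and -0.44 with Pdr1-Cyc8, and -0.57, -0.61 and -0.74 with Pdr1-Sin3. In the PDR1 deletion it was -1.45, -1.67 and -0.15, and the empty vector cultures themselves lay at 0.20, 0.11 and -0.31. Pdr1-Cyc8 replicate 1 and deletion replicates 1 and 2 therefore lay below every other culture, and deletion replicate 3 lay within the empty vector cultures. As group means these values are -0.06 ± 0.05, -0.74 ± 0.47, -0.64 ± 0.09, -1.09 ± 0.82 and 0 ± 0.27 (SD, n = 3 cultures).

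**Figure D1:**
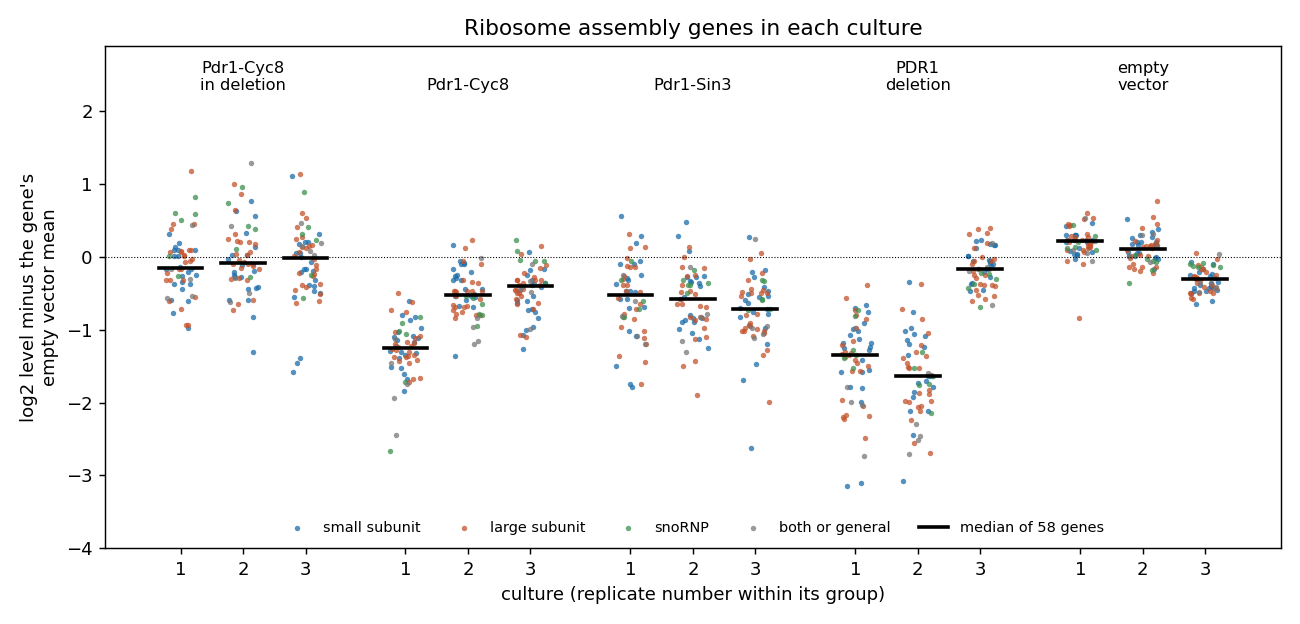
Level of each of the 58 assembly genes in each culture, as log2 minus the gene's empty vector mean; points are genes, coloured by class, and bars are medians. Pdr1-Cyc8 replicate 1 and deletion replicates 1 and 2 average -1.28, -1.45 and -1.67, while deletion replicate 3 averages -0.15.

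Within a group the assembly genes moved in the same direction from culture to culture. Deletion replicate 3 held the highest of the 3 values for 57 of the 58 genes, where 39.4% of all genes had their highest value in that culture. Pdr1-Cyc8 replicate 1 held the lowest value for 55 genes, against 36.4% of all genes. Empty vector replicate 3 was lowest for 51 genes, against 34.1% of all genes. In the other groups, Pdr1-Cyc8 in the deletion and Pdr1-Sin3, no culture held the lowest or highest value of more than 30 genes.

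The size of these culture differences was largest in the deletion. The median assembly gene was 1.21 higher in deletion replicate 3 than in replicate 1 and 1.57 higher than in replicate 2, while the median of all genes differed by 0.03 and 0.02. With Pdr1-Cyc8, replicates 2 and 3 exceeded replicate 1 by a median of 0.76 and 0.88. The median SD between the 3 cultures was 0.22 with Pdr1-Cyc8 in the deletion, 0.51 in the Pdr1-Cyc8 group, 0.24 with Pdr1-Sin3, 0.83 for the deletion alone and 0.34 with the empty vector. The same medians over all genes were 0.25, 0.27, 0.22, 0.34 and 0.23. Assembly genes thus varied more than the median gene in the Pdr1-Cyc8, deletion and empty vector groups, and about as much in the others. In the deletion, 50 of the 58 had an SD above 0.5 and 17 an SD above 1. Of all 5656 genes, 1525 and 216 did.

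Pooled over the 5 groups, the within-group SD had a median of 0.53 over the assembly genes and 0.32 over all genes, and 55 of the 58 lay above that median. ENP1, a small subunit factor that stays with the precursor into the cytoplasm, had the largest value, 0.90. HAS1, a helicase needed for both subunits, followed with 0.84 and NSR1, the yeast relative of nucleolin, with 0.83. The smallest were SPB4, a large subunit helicase, with 0.18, NHP2, a box H/ACA core protein, with 0.29, and RRP1, a large subunit factor, with 0.31.

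**Figure D2:**
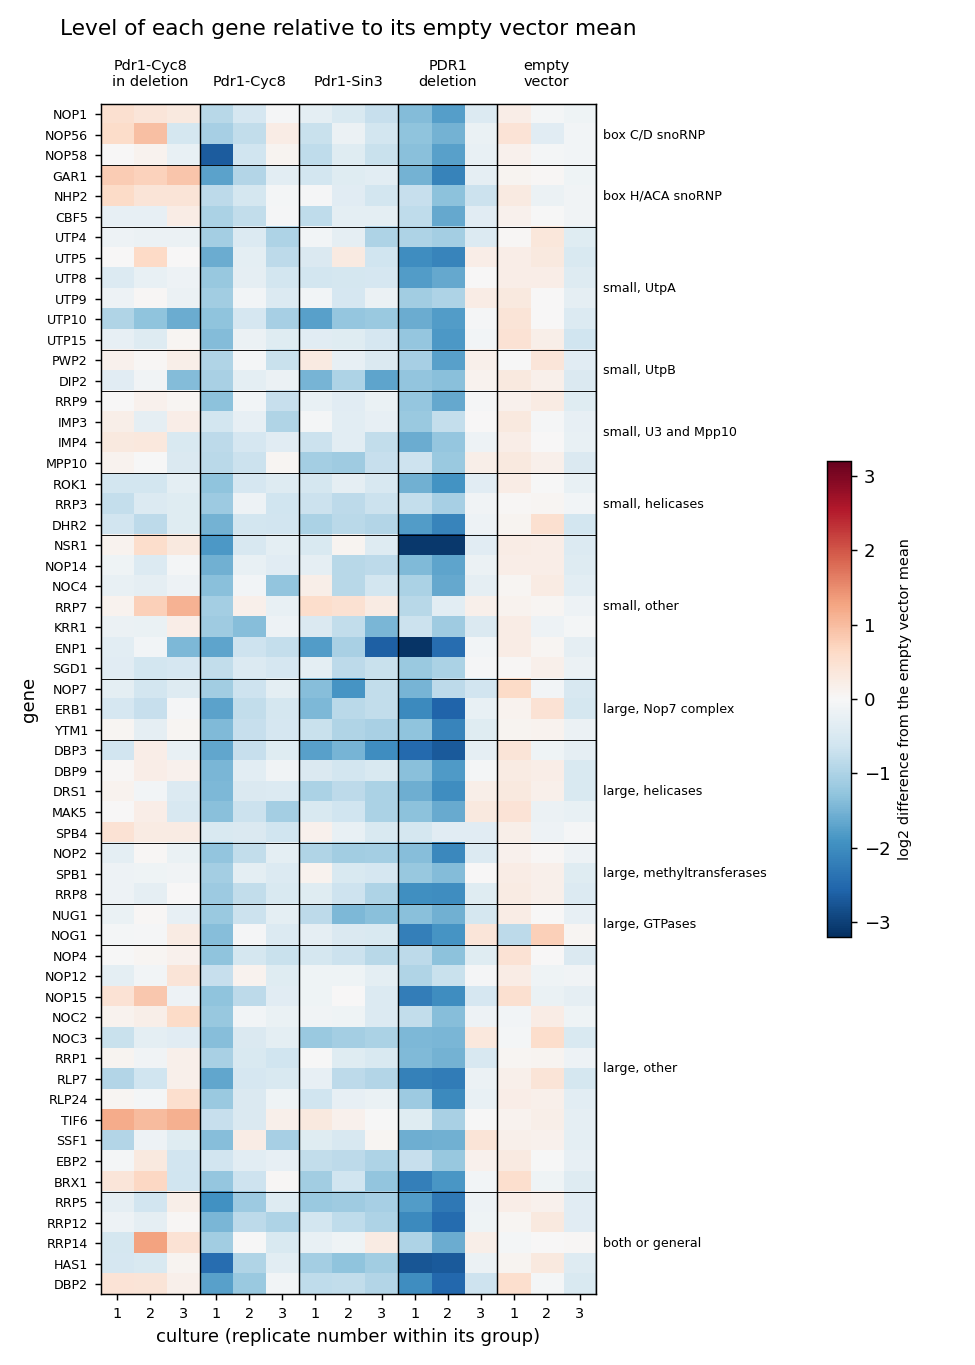
Log2 difference of each assembly gene from its empty vector mean in each of the 15 cultures, with genes in role order and blue for lower values. The dark columns of deletion replicates 1 and 2 run through nearly all roles, and RRP7, TIF6, GAR1 and NHP2 are among the genes above 0 in all 3 cultures with Pdr1-Cyc8 in the deletion.

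Whether a fusion that keeps the endogenous PDR1 changes these genes was addressed against the empty vector. With Pdr1-Cyc8, 58 of 58 assembly genes had a value below 0 and the median was -0.71, but none was called lower, where 0.248% of all probe sets were, and none higher, where 0.464% were. The lowest adjusted p was 0.261. In 21 genes the 3 Pdr1-Cyc8 cultures all lay below the 3 empty vector cultures, which held for 8.32% of all probe sets. The values furthest below 0 were those of HAS1 (-1.24), RRP5 (-1.17), a large RNA-binding protein of both subunits, and RRP12 (-1.10), an export factor of both subunits.

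With Pdr1-Sin3 the values were also mostly below 0, and they were alike in its 3 cultures. Of the 58 genes 56 had values below 0, with a median of -0.58, and 2 were called lower, against 1.06% of all probe sets. None was called higher, against 2.65%. NUG1, a nucleolar GTPase of the large subunit, had levels of 9.30, 8.72 and 8.81 with Pdr1-Sin3 and 10.39, 10.16 and 9.89 with the empty vector. It fell by 1.20 (SE 0.282, limma adjusted p = 0.027). NOP7, a scaffold of large subunit assembly, had 6.30, 5.77 and 6.86 with Pdr1-Sin3 and 8.28, 7.57 and 7.15 with the empty vector. It fell by 1.35 (SE 0.337, adjusted p = 0.0366). In both genes the groups did not overlap, as in 32 assembly genes in all, where 15.1% of all probe sets lay without overlap below the empty vector. RRP7 was the 1 assembly gene with all Pdr1-Sin3 cultures above the empty vector, a pattern of 14.7% of all probe sets. Both calls were lost without Pdr1-Sin3 replicate 2 or empty vector replicate 1 or 2, that of NUG1 also without Pdr1-Sin3 replicate 3, and that of NOP7 also without Pdr1-Sin3 replicate 1 or Pdr1-Cyc8 replicate 2. The highest adjusted p over all alternatives was 0.107 for NUG1 and 0.154 for NOP7, and without deletion replicate 2 or 3, which add to the shared estimate of the spread, 4 and 8 assembly genes were called lower, against 1.10% and 2.10% of all probe sets.

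The deletion without a fusion was then set against the empty vector, with the limit on that strain given above. The 58 genes were all below 0, with a median of -1.07. None was called lower, with 0.0108% of all probe sets called, or higher, with 0.0216%, and the lowest adjusted p was 0.137. NSR1 had the value furthest below 0: its levels were 8.35, 8.36 and 11.08 in the deletion and 11.68, 11.66 and 11.00 with the empty vector. The difference of -2.18 (SE 0.569, adjusted p = 0.174) thus came from replicates 1 and 2, while replicate 3 lay inside the range of the empty vector. In 18 genes the groups did not overlap, against 6.86% of all probe sets. Without deletion replicate 3, 48 assembly genes were called lower, where 464 of all 9275 probe sets were in that fit, with a median of -1.50. With deletion replicate 3 as the 1 deletion array, and Pdr1-Cyc8 replicate 1 left out too, none was, against 0.0647% of all probe sets, with a median of -0.16. The deposited signal of the 18S ribosomal RNA control probe sets was 6.54, 5.88 and 5.70 on the log2 scale in deletion replicates 1 to 3. It was 5.72, 5.83 and 5.64 with the empty vector and 5.68 in Pdr1-Cyc8 replicate 1. Of the cultures low in assembly genes, only deletion replicate 1 thus stood well above the empty vector. The part of this signal in the result was not tested.

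Pdr1-Cyc8 in the deletion lay close to the empty vector, with a median of -0.10 and 35 genes below 0. Its average of -0.06 becomes 0.03 with the values as deposited, where all genes average 0.19 instead of 0.06, so no direction is given. No assembly gene was called lower, against 4.00% of all probe sets, and 1 was called higher, against 4.47%. This was TIF6, the yeast counterpart of the translation factor eIF6, which rides on the large subunit precursor and keeps it from joining the small subunit. TIF6 had levels of 12.01, 11.84 and 11.98 with Pdr1-Cyc8 in the deletion, against 10.94, 11.02 and 10.55 with the empty vector, a difference of 1.11 (SE 0.276, adjusted p = 0.0213). The TIF6 call was lost without replicate 1 or 3 of the fusion group, without empty vector replicate 3, and with median centring, with adjusted p up to 0.0828. Groups without overlap were seen in 4 genes on the lower side, against 14.5% of all probe sets, and in 5 on the higher side, against 16.7%.

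The fusion in the deletion was set against the deletion alone, across the array sets. Here 24 of the 58 assembly genes, 41.4%, were called higher, against 10.3% of all probe sets, and none lower, against 8.70%. The median was 1.03, with 57 genes above 0. In 23 genes all cultures with the fusion lay above the deletion cultures, against 17.4% of all probe sets. GAR1, a core protein of box H/ACA snoRNPs, had 12.22, 12.14 and 12.29 with Pdr1-Cyc8 in the deletion, against 9.88, 9.25 and 11.09 in the deletion alone. It rose by 2.14 (SE 0.38, adjusted p = 0.00192). TIF6 rose by 1.59 (SE 0.276, adjusted p = 0.00166), with levels of 10.45, 9.78 and 10.82 in the deletion. For these genes deletion replicate 3 also lay below all cultures with the fusion. NSR1, with levels of 11.54, 12.02 and 11.76 with the fusion in the deletion, had the largest difference, 2.51 (SE 0.569, adjusted p = 0.008).

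The count of 24 depended on the fit and on single arrays. The fit shares its estimate of the spread over the 5 groups. The median SD of the assembly genes, however, was 0.83 in the deletion and 0.22 with the fusion in it. With only these groups in the fit the 24 became 8, and the share of all probe sets in that fit is not given here. Without deletion replicate 1, 2 or 3 there were 8, 9 and 49 calls, against 6.29%, 5.24% and 12.6% of all probe sets in those fits. Without replicate 1, 2 or 3 of the fusion group there were 10, 12 and 13, against 6.08%, 6.32% and 6.53%. Leaving out the 3 low cultures (Pdr1-Cyc8 replicate 1, deletion replicates 1 and 2) was an alternative chosen after seeing the data. It left 1 call, GAR1, against 1.85% of all probe sets, and a median of 0.07 over the 58, the 1 deletion array being taken to spread as the other groups do. Whichever single array was left out, 8 of the 24 remained called: NOP1, GAR1, NHP2, NSR1, NOP15, RRP1, TIF6 and DBP2.

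**Figure D3:**
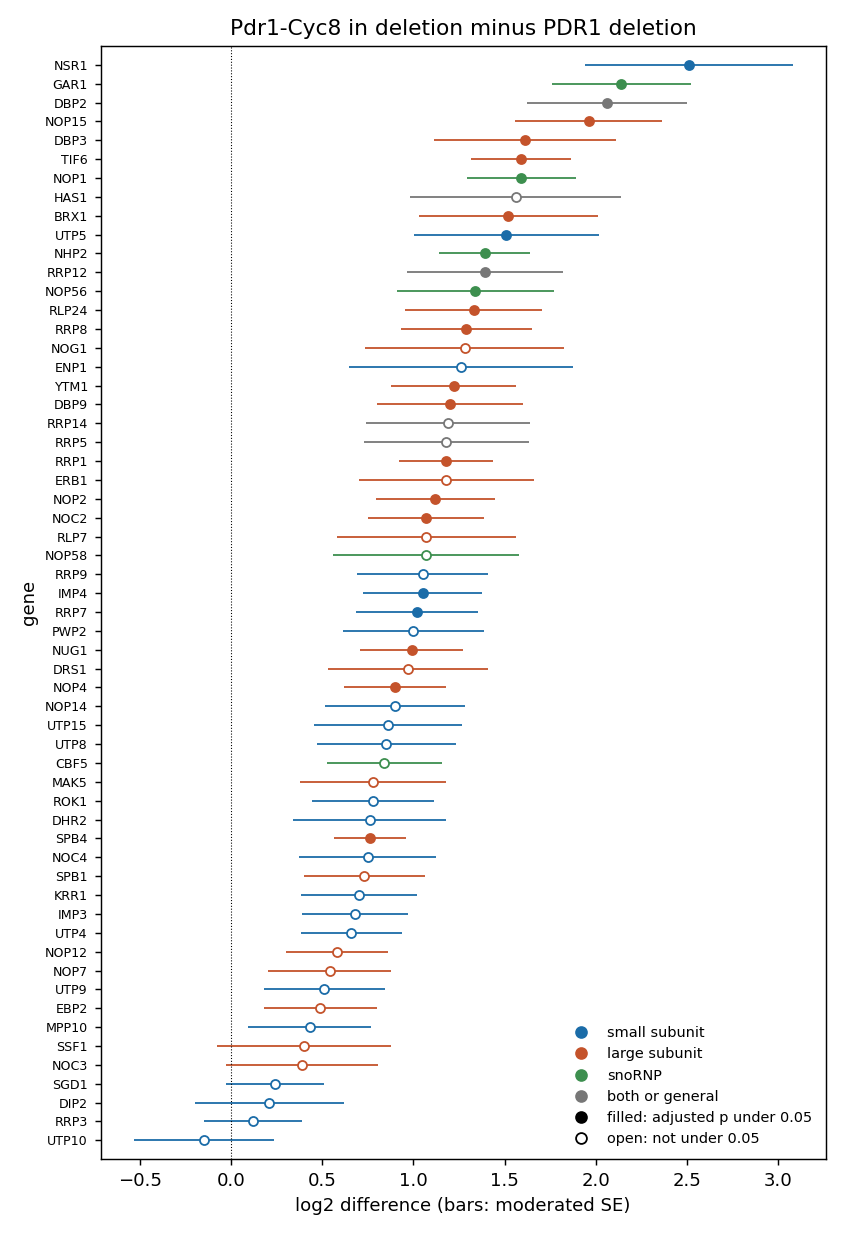
Log2 difference, Pdr1-Cyc8 in the deletion minus the PDR1 deletion, for each assembly gene (point) with its moderated SE (bar), ordered by size and coloured by class. The 24 filled points passed an adjusted p of 0.05; NSR1 is highest at 2.51 and UTP10 lowest at -0.15.

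Against the other fusions few assembly genes or none passed the test. Compared with Pdr1-Sin3, in the same array set, 56 of the 58 genes were above 0, with a median of 0.59. None was called higher, against 0.830% of all probe sets, or lower, against 1.70%. The lowest adjusted p was 0.0595, of NUG1, and without overlap the fusion group lay above in 33 genes, against 13.1% of all probe sets. DBP3, a large subunit helicase, showed the largest value there, 1.54, with 9.38, 10.21 and 9.75 with Pdr1-Cyc8 in the deletion, against 8.24, 8.48 and 7.99 with Pdr1-Sin3. With only these groups in the fit 8 genes were called higher, against 1.36% of all probe sets, and 5 without deletion replicate 3, against 1.56%.

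Compared with the same fusion in cells without the deletion, across the array sets, 5 genes were called higher, a share near the 5.97% of all probe sets, and none lower, against 5.16%, with a median of 0.67 and 24 genes without overlap on the higher side, against 17.4%. The 5 were TIF6 (1.46, adjusted p = 0.00517), GAR1 (1.82, adjusted p = 0.00849), SPB4 (0.86, adjusted p = 0.0142), NHP2 (0.96, adjusted p = 0.0241) and NOP4 (0.92, adjusted p = 0.0459), an RNA-binding protein of the large subunit. TIF6 and GAR1 stayed called in all 25 alternatives. Without deletion replicate 3 there were 15 calls and without Pdr1-Cyc8 replicate 3 there were 8, against 7.61% and 5.27% of all probe sets. There were 3 without Pdr1-Cyc8 replicate 1 or any 1 culture of the fusion in the deletion, against 2.39% to 3.33%.

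The median value for Pdr1-Cyc8 was 1.03 in the deletion, against the deletion alone, and -0.71 with PDR1, against the empty vector, where no assembly gene passed the test. The difference between these effects, which crosses the array sets, was tested as an interaction. It was called higher for 30 of the 58 genes, 51.7%, against 6.20% of all probe sets, and lower for none, against 5.30%. All 58 values were above 0, with a median of 1.74. GAR1 (3.15, SE 0.538, adjusted p = 0.00431) and NHP2 (1.87, SE 0.352, adjusted p = 0.00687) had the lowest adjusted p, followed by RRP1 (1.90), TIF6 (1.95), DBP2 (3.07), NOP1 (2.08), NOP15 (2.79) and SPB4 (1.29). The largest value was that of NSR1, 3.40. Of the 30 calls 12 remained whichever array was left out. The count was 12 without Pdr1-Cyc8 replicate 1, 13 and 15 without empty vector replicate 1 or 2, 15, 14 and 55 without deletion replicate 1, 2 or 3, and 18 or 19 without a culture of the fusion in the deletion. The share of all probe sets was 2.36% to 4.17% in these fits, except 10.4% without deletion replicate 3. Without the 3 low cultures the count was 1, that of GAR1, against 0.280%, with a median of 0.53. These comparisons share cultures with those above, so the values are not independent of them.

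The snoRNP proteins guide and carry out the modification of ribosomal RNA. NOP1, the methyltransferase fibrillarin of the box C/D particles, had 11.91, 11.78 and 11.72 with Pdr1-Cyc8 in the deletion, against 10.02, 9.64 and 10.97 in the deletion alone. In the remaining cultures it had 10.51, 10.87 and 11.37 with Pdr1-Cyc8, 11.08, 10.91 and 10.68 with Pdr1-Sin3, and 11.60, 11.34 and 11.27 with the empty vector. All cultures with the fusion in the deletion lay above all others, and the difference from the deletion was 1.59 (SE 0.299, adjusted p = 0.00262). GAR1 was also highest in those cultures, with 9.68, 10.45 and 11.05 with Pdr1-Cyc8, 10.80, 11.01 and 11.06 with Pdr1-Sin3 and 11.49, 11.43 and 11.27 with the empty vector. NHP2 had 12.89, 12.70 and 12.70 with Pdr1-Cyc8 in the deletion, against 11.55, 10.97 and 11.60 in the deletion alone, without overlap, and rose by 1.39 (adjusted p = 0.00204).

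Of the other snoRNP proteins, NOP56 and NOP58 differed more among their own cultures, with pooled SDs of 0.61 and 0.74. GAR1 had 0.53 and CBF5 0.41. NOP56, a core protein of box C/D particles, was called higher in the deletion with the fusion than without it (1.34, adjusted p = 0.0411), but its levels with the fusion, 10.85, 11.22 and 9.69, overlapped those of the deletion, 8.98, 8.74 and 10.03. CBF5, the pseudouridine synthase of box H/ACA particles, did not pass, with a value of 0.84 (adjusted p = 0.0744). NOP58, the partner of NOP56, gave different answers by probe set. Its brightest probe set had a value of 1.07 (adjusted p = 0.161), while its other 3 probe sets were called higher by 1.55 to 1.70. In Pdr1-Cyc8 cultures the brightest probe set read 10.70, 12.72 and 13.44, the widest spread of any assembly gene in that group (SD 1.42).

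Among small subunit factors, 4 of 22 were called higher with the fusion in the deletion than in the deletion alone: UTP5 of the UtpA complex (1.51), IMP4 of the Mpp10 complex (1.05), NSR1 (2.51) and RRP7 (1.02), with a class median of 0.77. UTP5 was close to the threshold, at an adjusted p of 0.0498. The class also held the genes with the smallest differences. UTP10, the largest UtpA protein, had 9.06, 8.72 and 8.44 with Pdr1-Cyc8 in the deletion, against 8.44, 8.24 and 9.98 in the deletion alone, a value of -0.15 (adjusted p = 0.839). It had 8.73, 9.48 and 8.95 with Pdr1-Cyc8, 8.28, 8.78 and 8.83 with Pdr1-Sin3, and 10.45, 10.03 and 9.59 with the empty vector. Every culture with a fusion thus lay below the 3 empty vector cultures, with differences of -1.28 for Pdr1-Cyc8 in the deletion (adjusted p = 0.051), -0.97 for Pdr1-Cyc8 (adjusted p = 0.408) and -1.39 for Pdr1-Sin3 (adjusted p = 0.058), none past the threshold.

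The values of RRP3, a small subunit helicase, and DIP2, a WD-repeat protein of UtpB, were likewise near 0 for the fusion in the deletion against the deletion, at 0.12 and 0.21. DIP2 had 8.34, 8.60 and 7.32 with Pdr1-Cyc8 in the deletion, against 7.44, 7.36 and 8.83 in the deletion alone. ENP1 had the widest range in the deletion, with 6.37, 7.06 and 9.43, against 9.74, 9.57 and 9.22 with the empty vector. With Pdr1-Sin3 it had 7.72, 8.46 and 6.89, and its value of -1.82 against the empty vector was the lowest of the 58 but did not pass (adjusted p = 0.113). RRP7, which was not lower with Pdr1-Sin3, had 8.07, 7.98 and 7.77 there and 7.62, 7.56 and 7.34 with the empty vector, a value of 0.44.

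Of the large subunit factors 14 of 25 were called higher with the fusion in the deletion than in the deletion alone, with a class median of 1.07. They came from each kind of factor: YTM1 of the Nop7 complex, the helicases DBP3, DBP9 and SPB4, the methyltransferases NOP2 and RRP8, the GTPase NUG1, and NOP4, NOP15, NOC2, RRP1, RLP24, TIF6 and BRX1 among the rest. NOP15, an RNA-binding protein, rose by 1.96 (SE 0.403, adjusted p = 0.00456), with 10.03, 10.44 and 9.40 with the fusion in the deletion, against 7.36, 7.59 and 9.05 in the deletion alone. RRP1 rose by 1.18 (SE 0.258, adjusted p = 0.00642), with 8.83, 8.64 and 8.90 against 7.35, 7.24 and 8.24. SPB4 was the gene whose cultures were closest to each other. It had 9.25, 9.04 and 9.06 with the fusion in the deletion, against 8.23, 8.42 and 8.42 in the deletion alone, so here deletion replicate 3 did not stand apart, and it rose by 0.76 (adjusted p = 0.0162).

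The remaining large subunit factors included bright genes with wide spreads. ERB1, a partner of Nop7, had 10.14, 9.96 and 10.66 with the fusion in the deletion, against 8.64, 8.13 and 10.44 in the deletion alone, a value of 1.18 that did not pass (adjusted p = 0.0991). NOG1, a GTPase, was the gene with the widest spread among empty vector cultures, with 9.13, 10.74 and 10.04. In the deletion it had 7.77, 8.09 and 10.36, against 9.90, 9.93 and 10.22 with the fusion, a value of 1.28 (adjusted p = 0.116). NOP2, which methylates the large subunit RNA, had 9.53, 9.90 and 9.63 with the fusion in the deletion, against 8.49, 7.79 and 9.41 in the deletion alone, and rose by 1.12 (adjusted p = 0.0274).

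Of the 5 genes that serve both subunits or act generally, DBP2 and RRP12 were called. DBP2, a helicase that also acts on messenger RNA, had 11.93, 11.91 and 11.65 with the fusion in the deletion, against 9.51, 8.97 and 10.84 in the deletion alone, and rose by 2.06 (SE 0.439, adjusted p = 0.00559). Its second probe set rose by 1.61 (adjusted p = 0.0202). HAS1 had 8.75, 8.78 and 9.35 with the fusion in the deletion, against 6.55, 6.57 and 9.08 in the deletion alone, and its value of 1.56 did not pass (adjusted p = 0.0716). RRP14 had 8.61, 10.45 and 9.63 with the fusion in the deletion, the widest spread in that group (SD 0.92).

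Small and large subunit factors had medians within 0.18 of each other in every culture. In Pdr1-Cyc8 replicate 1 the median small subunit factor lay at -1.20 and the median large subunit factor at -1.26 relative to the empty vector, and in deletion replicate 2 at -1.63 and -1.62. The small minus large difference of these medians was -0.14 ± 0.02 with Pdr1-Cyc8 in the deletion, 0.02 ± 0.18 in the Pdr1-Cyc8 group, 0.07 ± 0.07 with Pdr1-Sin3, 0.08 ± 0.08 for the deletion alone and -0.01 ± 0.06 with the empty vector (SD, n = 3 cultures). The 3 cultures with the fusion in the deletion were the lowest apart from Pdr1-Cyc8 replicate 3, at -0.12, -0.16 and -0.15 against -0.18 in that culture. With the values as deposited the first of these means was -0.11 ± 0.02. Between groups, the median of small subunit factors was below that of large subunit factors for Pdr1-Cyc8 in the deletion against each other group. Against Pdr1-Sin3, in the same array set, the class medians were 0.28 for small and 0.62 for large subunit factors, a difference of -0.34 that ranged from -0.39 to -0.29 when 1 array was left out. Against the deletion it was -0.30 (-0.37 to -0.25), against Pdr1-Cyc8 -0.19 (-0.26 to -0.10), against the empty vector -0.10 (-0.16 to -0.05) and for the interaction -0.30 (-0.38 to -0.22). These comparisons share the cultures of the fusion in the deletion. The calls against the deletion were 4 of 22 small and 14 of 25 large subunit factors, a difference between classes that was not tested, since genes of a class are not replicates. Between cultures the classes varied alike: in the deletion the median SD was 0.81 over small and 0.90 over large subunit factors, and with the empty vector 0.35 and 0.38.

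**Figure D4:**
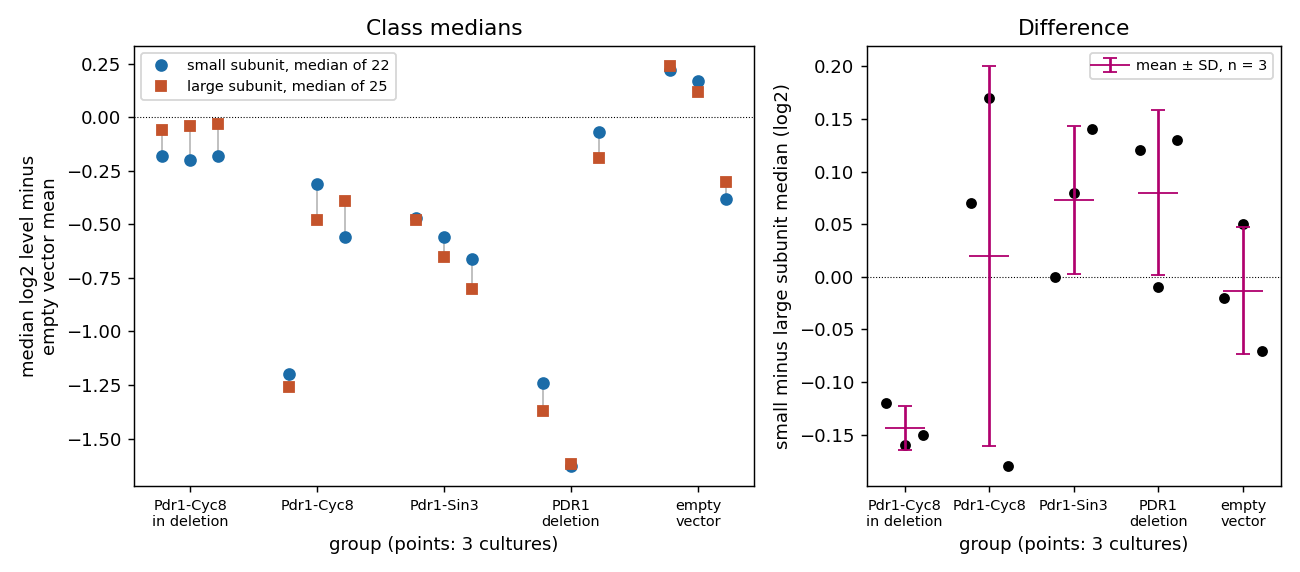
Left, median level of small (22) and large (25) subunit factors relative to the empty vector in each culture; right, their difference per culture with group mean and SD (n = 3). The difference is -0.14 ± 0.02 for the fusion in the deletion, against -0.01 ± 0.06 with the empty vector.

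The rest of the pathway followed the same cultures. Of 83 further assembly genes 82 were measured. They averaged -1.13, -0.39 and -0.48 with Pdr1-Cyc8, -0.56, -0.55 and -0.70 with Pdr1-Sin3, and -1.45, -1.53 and -0.12 in the deletion. Against the empty vector, BUD21 was called lower with Pdr1-Cyc8 (-1.30, adjusted p = 0.0383), MAK11 (-0.91, adjusted p = 0.0373) and UTP20 (-1.14, adjusted p = 0.0492) with Pdr1-Sin3, and none in the deletion. The shares of all probe sets called lower were 0.248%, 1.06% and 0.0108%. With the fusion in the deletion 32 were called higher than in the deletion alone, against 10.3% of all probe sets. Higher than with Pdr1-Cyc8 were 9, against 5.97%, and none was called against Pdr1-Sin3 or the empty vector. The medians of the 82 genes in these comparisons were 0.96, 0.56, 0.55 and -0.06.

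RNA polymerase I makes the precursor. Of 8 genes for its subunits and its initiation factor RRN3, none was called against the empty vector, and the values in the deletion lay between -1.64 for RPA43 and -0.55 for RRN3, with RPA190, the largest subunit, at -1.54. With the fusion in the deletion, RPA190 (1.62, adjusted p = 0.0209), RPA43 (1.55, adjusted p = 0.0116), RPA49 (1.25, adjusted p = 0.0279), RPA12 (1.06, adjusted p = 0.0359) and RPA14 (1.02, adjusted p = 0.00336) were called higher than in the deletion alone, against 10.3% of all probe sets. RPA135 (0.58), RPA34 (1.05) and RRN3 (0.10) did not pass.

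Ribosomal protein genes, the other part of the ribosome's supply, showed smaller differences. Of 137 listed, 80 had a probe set matched to that gene alone. Their medians against the empty vector were 0.23 with Pdr1-Cyc8 in the deletion, -0.15 with Pdr1-Cyc8, 0.06 with Pdr1-Sin3 and -0.28 in the deletion, where assembly genes had -0.10, -0.71, -0.58 and -1.07. None was called in the last 3, and 3 higher and 1 lower with Pdr1-Cyc8 in the deletion, against 4.47% and 4.00% of all probe sets. With the fusion in the deletion 22 were called higher than in the deletion alone, against 10.3% of all probe sets, with a median of 0.47.

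Environmental stress genes, a list of 30 that includes heat shock and trehalose genes, were on average above the empty vector in every other group, furthest with Pdr1-Sin3. Against the empty vector 5 rose with Pdr1-Cyc8 and 19 with Pdr1-Sin3, against 0.464% and 2.65% of all probe sets. The medians were 0.89 and 1.51, and none passed in the deletion, with a median of 0.74. With Pdr1-Cyc8 in the deletion 9 rose and 2 fell, against 4.47% and 4.00% of all probe sets. The median was 0.58, although the assembly genes lay near the empty vector there. By culture, the stress genes averaged 0.43, 0.57 and 0.60 for the fusion in the deletion, 0.89, 1.09 and 0.54 in the Pdr1-Cyc8 group, and 1.33, 1.59 and 1.44 with Pdr1-Sin3. They averaged 0.69, 0.89 and 0.55 in the deletion and -0.24, 0.36 and -0.12 with the empty vector. In the deletion, replicate 3 thus had the lowest stress genes and the highest assembly genes. Whether growth stage or stress has a part in the assembly gene levels was not tested.

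**Figure D5:**
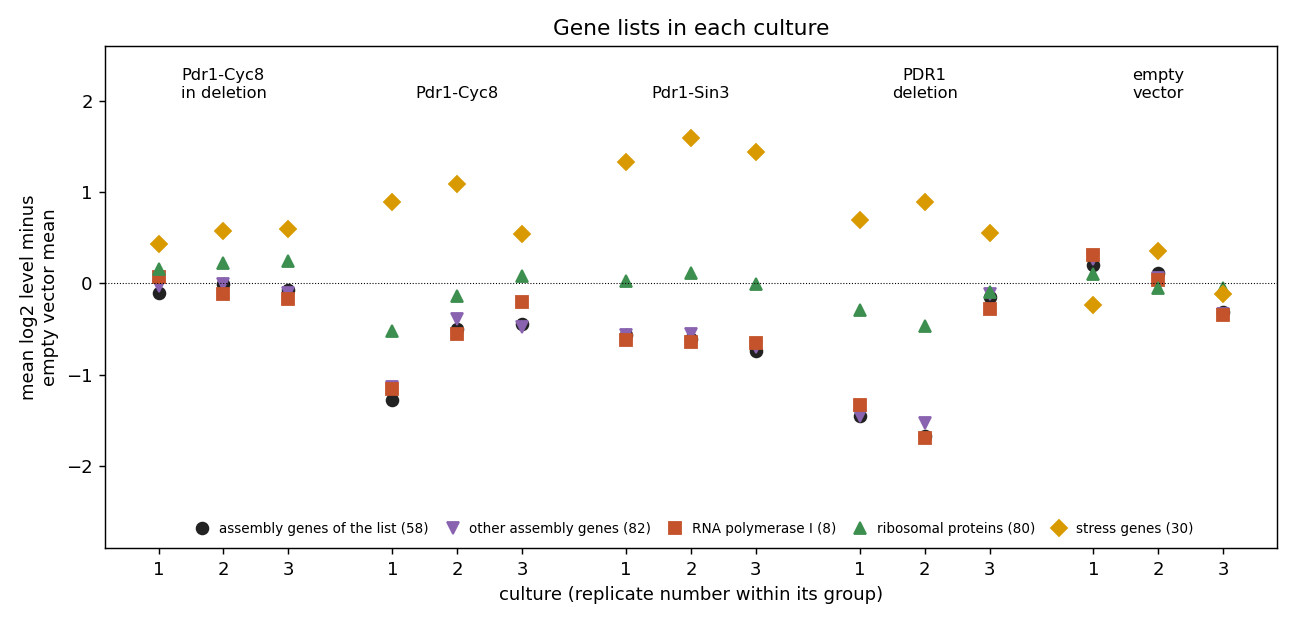
Mean log2 level of 5 gene lists in each culture relative to the empty vector, with the number of genes in brackets. The listed assembly genes, the other assembly genes and RNA polymerase I lie close together in each culture, ribosomal proteins stay between -0.52 and 0.25, and stress genes are highest with Pdr1-Sin3, at 1.33 to 1.59.

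Of 9 regulators of this regulon only CRF1, a corepressor of ribosomal protein genes, was called, and only with Pdr1-Cyc8 in the deletion against the empty vector (0.93, adjusted p = 0.0153). It had 5.60, 5.78 and 5.71 with Pdr1-Cyc8 in the deletion, against 4.44, 4.81 and 5.03 with the empty vector. The empty vector values are as low as that of PDR1 where it is deleted, so the size of this difference is uncertain. TOD6, a repressor of the assembly genes, had a wide spread in the deletion, with 5.67, 6.58 and 8.51 in the deletion and 8.59, 8.81 and 7.68 with the empty vector, and its value of -1.44 did not pass (adjusted p = 0.303). SFP1 had a value of 0.23 in the deletion and -0.61 for the fusion in the deletion against the deletion (adjusted p = 0.0711). DOT6, STB3, SCH9, IFH1, FHL1 and ABF1 had values between -0.55 and 0.27 against the empty vector in the deletion and none passed in any comparison.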

How the data were processed

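RNA of 15 yeast cultures was hybridised to Affymetrix YG-S98 arrays; per the labels' protocols, biotinylated cRNA was made from 10 ug of total RNA. The authors deposited linear intensities, 1 per probe set and array, scaled to a trimmed mean of 500.5 to 500.7 on every array; which software made them is not given in the sources used. There were no detection calls. Of 9335 probe sets 60 controls were left out; of the other 9275, 6504 matched 1 gene in the platform annotation, 328 several and 2443 none. Values were quantile normalised, since array medians differed by a factor of 1.219, and taken as log2(value + 16).

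Groups were taken from the sample titles. limma 3.58.1 in R 4.3.3 fitted all 15 arrays (10 residual degrees of freedom, prior 5.35), with Benjamini-Hochberg adjustment over 9275 probe sets in each comparison. The interaction was the fusion's effect in the deletion minus its effect without it. The fit was tested on simulated data. The members, lists, roles and tests were chosen with earlier results of these data known. Genes named are the brightest of each role, called genes (the 8 with the lowest adjusted p where more), the 3 lowest and highest of each comparison, the 3 with the largest and smallest spread, regulators, RNA polymerase I genes, PDR1, CYC8 and SIN3; others are named in counts or as examples chosen after their values were seen. No promoter or protein sequence was used here. Plots used Python 3.11.15 and matplotlib 3.10.9.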

Additional observations from a re-analysis of the deposited data

Results flagged for a closer look

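In a test of the difference itself, the value for Pdr1-Cyc8 differed between groups with and without PDR1 for 30 of the 58 assembly genes. All 30 were called higher, against 6.20% of all probe sets, and 12 stayed called whichever single array was left out. The median over the 58 genes was 1.74, and 0.53 without the 3 low cultures. Among the 30 called genes the difference of effects, in the deletion minus with PDR1, was 3.15 for GAR1, 1.87 for NHP2, 1.90 for RRP1, 1.95 for TIF6, 3.07 for DBP2, 2.08 for NOP1, 2.79 for NOP15 and 1.29 for SPB4 on the log2 scale. The same test called 39 of the 82 other assembly genes, 5 of the 8 RNA polymerase I genes and 17 of the 80 ribosomal protein genes higher. It called 6 of the 30 stress genes lower, where 5.30% of all probe sets were lower and 6.20% higher. The array set cannot be told apart from the fusion in it. Nor can any other difference of the deletion strain. There the probe set without a gene lay at 13.97 ± 0.16, against 4.48 ± 0.27 with the fusion in the deletion.

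The control probe sets for ribosomal RNA, outside the fit, were higher with Pdr1-Sin3 than with the empty vector. On the log2 scale of the deposited signal, those for 18S rRNA averaged 7.02 ± 0.14 with Pdr1-Sin3 and 5.73 ± 0.10 with the empty vector, and those for 25S rRNA 6.65 ± 0.39 and 5.92 ± 0.21 (SD, n = 3). With Pdr1-Cyc8 in the deletion, in the same array set as Pdr1-Sin3, they averaged 6.15 ± 0.12 and 6.53 ± 0.19. In deletion replicates 1 to 3 they were 6.54, 5.88 and 5.70 for 18S and 6.73, 6.27 and 5.81 for 25S. Within the deletion they were thus higher in replicates 1 and 2, which were low in assembly genes, than in replicate 3. Pdr1-Cyc8 replicate 1, also low in assembly genes, had 5.68 and 5.74, within the range of the empty vector cultures. The part of these signals in the assembly gene values was not tested.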

How the results depend on the processing

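The medians of the assembly genes kept their sign in all alternatives except Pdr1-Cyc8 in the deletion against the empty vector, which ranged from -0.24 to 0.03 when 1 array was left out. Its average of -0.06 over cultures became 0.03 as deposited and -0.13 with median centring. Counts of calls moved more. The share of all probe sets called also changes between fits and is not repeated here. The counts in this section are therefore not, by themselves, a result about the assembly genes. Genes lower with Pdr1-Sin3 than with the empty vector numbered 0 with a pseudocount of 1, 10 with only the groups compared, 1 with the replicate block, 9 with array weights and 15 without the 3 low cultures. In the deletion array weights gave 22 lower, and the median without the 3 low cultures was -0.16. For Pdr1-Cyc8 in the deletion against the empty vector, 1 gene was lower with median centring, without the dimmest 25% of probe sets, with a pseudocount of 64, a trended prior, only the groups compared, array weights or without the 3 low cultures; 0 were higher with median centring and 2 with only the groups compared or without the 3 low cultures. Against the deletion the 24 became 15 with a pseudocount of 1, 8 with only the groups compared, 38 with array weights and 1 without the 3 low cultures (median 0.07). Against Pdr1-Sin3 there was 1 as deposited, without the dimmest 25%, with a pseudocount of 64 or a trended prior, 8 with only the groups compared or without the 3 low cultures, 6 with array weights and 9 with only the second array set. Against Pdr1-Cyc8 there were 9 with array weights and 3 without the 3 low cultures. The interaction count was 16 with a pseudocount of 1, 17 with only the groups compared and 1 without the 3 low cultures (median 0.53). The causes were not tested.

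Leaving out 1 array gave 0 to 1 gene lower with Pdr1-Cyc8, 0 to 8 with Pdr1-Sin3, 0 to 48 in the deletion, all against the empty vector, where the fusion in the deletion had 0 to 1 lower and 0 to 1 higher. It gave 8 to 49 higher against the deletion, 0 to 5 against Pdr1-Sin3, 3 to 15 against Pdr1-Cyc8 and 12 to 55 for the interaction. Small minus large medians ranged from 0.08 to 0.22 with Pdr1-Sin3, 0.04 to 0.18 in the deletion and -0.16 to -0.05 for the fusion in the deletion, against the empty vector. Replicate numbers did not pair the samples, with correlations of -0.35 to 0.33 between same-numbered cultures, and the replicate block gave 18 calls against the deletion and 25 for the interaction. Dim genes are compressed by the pseudocount, and 3 arrays a group limit the precision.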
